A study of Mus musculus with 12 samples.

Results

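The 10 genes described here encode heat shock proteins: the small proteins Hspb1 and Hspb8, the Hsp70 proteins Hspa1a, Hspa1b and Hspa8, their partners Dnajb1 and Hsph1, the Hsp90 protein Hsp90aa1, and the mitochondrial pair Hspd1 and Hspe1. Every probe set annotated to 1 of these symbols alone was taken, which gave 23 of the 22626 non-control probe sets on the Affymetrix 430A array and 25 of 45037 on the 430 2.0 array. No probe set was annotated to a member together with another symbol. Values are linear signals per probe set as deposited by the authors.

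The 12 arrays hold liver RNA of mice 10 weeks of age. Fah encodes the final enzyme of tyrosine degradation, and p21 is the cell cycle inhibitor encoded by Cdkn1a. The drug NTBC stops tyrosine degradation upstream of Fah and so protects mice that lack this enzyme. On 430A, 4 arrays are titled normal: normal 1 is a wildtype mouse on water, normal 2 a wildtype mouse on NTBC, normal 3 a Fah knockout on NTBC, and normal 4 a double knockout of Fah and p21 on NTBC. The off groups are 3 Fah knockouts (Fah off 1 to 3) and 2 double knockouts (Fah p21 off 1 and 2) that spent 14 days without NTBC. On 430 2.0 there are 1 normal array, again numbered normal 4 and possibly the same liver, and 2 double knockouts off NTBC (Fah p21 off 3 and 4). The normal group thus pools 4 conditions with 1 mouse each, and its arrays are shared by both comparisons against it. Strain and sex are not stated in the sources. By their titles the arrays are biological replicates, but nothing further says how the mice were drawn, so p-values measure only the spread between these samples, which may be technical.

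Fah and p21 were read first as a check of the labels. Both wildtype livers read 6868.1 and 7120.1 for Fah, the 2 knockouts on NTBC 181.9 and 233, and the 5 livers off NTBC 100.8 to 114.2. Cdkn1a probe set 1421679_a_at read 989.5 to 1861.5 in Fah off and 9.5 and 8.2 in Fah p21 off. A second Cdkn1a probe set, 1424638_at, read 1827.6 and 2059.6 in the double knockouts off NTBC, and the sources do not say whether it lies outside the deleted part. The 13 hepatocyte markers on 430A summed to 141272 to 153750 in normal livers, 85973.9 to 95489.3 in Fah off and 84676.4 to 90092.1 in Fah p21 off, and 0 of the 13 stayed below a signal of 20 on all arrays.

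Cells raise these chaperones together when proteins unfold, as in heat, oxidative damage or poisoning. The transcription factor Hsf1 then binds DNA sites built from inverted repeats of GAA near the start of the genes. Hspa1a and Hspa1b are the strongly inducible Hsp70 genes, whereas Hspa8 is the constitutive Hsp70 that serves unstressed cells. Dnajb1 brings unfolded proteins to Hsp70, Hsph1 exchanges its nucleotide, Hsp90aa1 is the inducible cytosolic Hsp90, and small proteins such as Hspb1 hold unfolded proteins until Hsp70 takes over. Hspd1 and Hspe1 form the folding chamber of the mitochondrial matrix and its lid.

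Promoter windows show which members carry such repeats next to their start. The sequences are from RefSeq on GRCm38.p6, 250 bases before to 50 after each start, and 8 of the 10 members were matched, with 11 windows; Hspa8 and Hsp90aa1 were not. The 4 below were chosen because they hold the paired sites of the most changed member (Hspb1), the site shared by both inducible Hsp70 genes (Hspa1a), and the triple sites of a member that changed in both arrays (Hsph1) and of a mitochondrial member (Hspe1). Capitals mark every match to GAANNTTC or TTCNNGAA, the 2-unit motif, searched on both strands, and overlapping matches merge into one run of capitals.
Hspb1, chr5:135887669-135887968, plus strand: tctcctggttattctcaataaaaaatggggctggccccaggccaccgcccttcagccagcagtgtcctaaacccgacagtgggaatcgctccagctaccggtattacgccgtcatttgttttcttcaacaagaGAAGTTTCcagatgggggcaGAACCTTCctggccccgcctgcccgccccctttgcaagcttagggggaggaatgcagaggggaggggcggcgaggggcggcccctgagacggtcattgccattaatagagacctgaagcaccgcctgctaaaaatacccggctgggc
Hspa1a, chr17:34972107-34972406, minus strand: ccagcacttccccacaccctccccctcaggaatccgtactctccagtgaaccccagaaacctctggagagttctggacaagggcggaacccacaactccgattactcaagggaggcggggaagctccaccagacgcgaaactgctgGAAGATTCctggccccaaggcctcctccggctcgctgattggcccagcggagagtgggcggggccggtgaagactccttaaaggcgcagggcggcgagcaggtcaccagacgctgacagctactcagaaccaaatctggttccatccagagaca
Hsph1, chr5:149636266-149636565, minus strand: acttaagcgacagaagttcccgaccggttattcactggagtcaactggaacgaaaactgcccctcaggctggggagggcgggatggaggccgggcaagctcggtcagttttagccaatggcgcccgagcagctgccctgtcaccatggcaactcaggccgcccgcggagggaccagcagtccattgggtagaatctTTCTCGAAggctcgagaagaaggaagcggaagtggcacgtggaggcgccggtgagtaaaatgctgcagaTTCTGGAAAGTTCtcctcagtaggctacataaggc
Hspe1, chr1:55087898-55088197, plus strand: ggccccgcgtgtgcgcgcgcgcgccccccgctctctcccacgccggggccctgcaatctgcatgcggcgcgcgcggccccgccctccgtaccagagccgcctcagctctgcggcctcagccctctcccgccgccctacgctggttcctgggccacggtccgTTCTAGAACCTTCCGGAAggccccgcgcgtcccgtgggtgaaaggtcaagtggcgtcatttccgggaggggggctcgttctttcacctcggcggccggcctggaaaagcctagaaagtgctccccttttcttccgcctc

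The 2-unit motif was present in 8 of the 11 member windows and 7 of the 8 matched members, against 15.1% of all 32851 windows of the same length and 17% of 27025 genes. Hspb1 held 2 separate sites, GAAGTTTC at -117 and GAACCTTC at -97 from the start (first base of the site). Hspa1a held GAAGATTC at -104. The Hspa1b window had the same site at the same place and was identical to that of Hspa1a at 296 of 300 positions (98.7%), with 201 identical bases in a row. The 3-unit motif GAANNTTCNNGAA or TTCNNGAANNTTC, which contains the 2-unit motif, was present in 4 of 11 member windows, against 0.603% of all windows. By gene it was present in 3 of 8 matched members, Hsph1, Hspd1 and Hspe1, against 0.662% of all genes. The 2 windows of Hsph1 overlap and hold the same sites, so member windows are not separate stretches of DNA. Hspd1 and Hspe1 are transcribed away from each other, and a window of Hspd1 overlaps that of Hspe1 by 285 bases, so both hold the same run of repeats. Neither window of Dnajb1 held these letters. A match describes the letters only and was not measured as a bound site.

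Hspb1 changed most of the members. Probe set 1422943_a_at read 525.6, 365.6, 504.9 and 860.9 in normal 1 to 4, then 6347.8, 6270.1 and 7159.7 in Fah off and 4502.1 and 3726.7 in Fah p21 off. Every liver off NTBC stood far above the highest normal liver, and the groups did not overlap. On the log2(signal + offset) scale, with an offset of 9.9, the change was 3.59 ± 0.23 (SE) in Fah off (12.03-fold, limma adjusted p = 1.22e-06) and 2.91 ± 0.26 in Fah p21 off (7.49-fold, adjusted p = 2.25e-05). The second probe set, 1425964_x_at, read 90.3 to 389.1 in normal livers, 3819.2 to 4576.8 in Fah off and 2325.9 to 2714.3 in Fah p21 off, and rose by 4.12 ± 0.37 and 3.38 ± 0.42. Against the array of its own genotype on NTBC, 1422943_a_at was 3.68 ± 0.22 higher in Fah off (adjusted p = 3.72e-05) and 2.24 ± 0.24 higher in Fah p21 off (adjusted p = 0.00085), with the single control array assumed to vary like the other groups.

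Both Hspb1 probe sets read lower in the double knockouts than in the single knockouts off NTBC. For 1422943_a_at the difference was -0.68 ± 0.27 (limma adjusted p = 0.55, 95% interval -1.29 to -0.08), so it did not pass. Markers of some other liver cells moved along with the off groups, and others did not. All 6 tested cholangiocyte markers, of 10 on the array, rose in both off groups. Among them Epcam, at 7.1 to 18.5, and Prom1, at 23.3 to 62.5, were dim in normal livers. They entered the test through the off livers, where they read higher, so this share was partly set by the filter on dim signals. The 10 markers summed to 233.7 to 413.6 in normal livers, 1792.7 to 1867 in Fah off and 1650.1 to 2692.7 in Fah p21 off. Krt19 and Krt7, which define these cells, were too dim to be tested, with Krt19 at 15.5 to 30.4 in normal livers and at 11.8 to 60.8 off NTBC, and Muc1 never exceeded 14.2. Of 13 hepatocyte markers 12 fell in Fah off and 13 in Fah p21 off, or 8 and 5 after quantile normalization. Further, 3 and 5 of 10 macrophage markers rose, and 3 and 6 of 11 stellate cell and fibroblast markers rose. Over all 9195 genes 19.7% rose and 16.5% fell in Fah off, and 17.8% and 11.5% in Fah p21 off. The macrophage and stellate shares in Fah off, 30% and 27.3%, were thus not far above that of all genes. In both off groups 0 of 4 neutrophil, 0 of 3 lymphocyte and 0 of 4 muscle markers passed. There 1 of 9 endothelial markers rose and 2 of 2 erythroid markers fell. In bulk liver, fewer cells of a type and less RNA per cell cannot be told apart, and the part of these shifts in the Hspb1 result was not tested.

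Hspb8, a partner of the autophagy adaptor Bag3, moved far less. Probe set 1417013_at read 1371.4, 1251.7, 1103.5 and 1112.5 in normal livers, 1793.8, 1735.7 and 2610.7 in Fah off, and 1609.6 and 1061 in Fah p21 off. The Fah off livers all exceeded the normal ones, and the double knockouts straddled them. The rise was 0.73 ± 0.19 in Fah off (adjusted p = 0.00978), with 0.12 ± 0.21 in Fah p21 off (adjusted p = 0.725). Probe set 1417014_at gave 0.56 ± 0.20 in Fah off (adjusted p = 0.0546) and 1456434_x_at 0.12 ± 0.15 (adjusted p = 0.571), so only 1 of the 3 passed. Against the Fah knockout on NTBC alone, 1417013_at gave 0.86 ± 0.29 (adjusted p = 0.0642). Bag3 itself rose by 1.04 ± 0.34 in Fah off (adjusted p = 0.0339), a call lost after quantile normalization and after median scaling.

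The inducible Hsp70 genes were highest in a control liver. Hspa1a probe set 1452388_at read 409.6 in normal 1, the wildtype mouse on water, against 12.4, 20.8 and 34.9 in normal 2 to 4, which were all on NTBC. It read 73.7, 74.4 and 145.5 in Fah off and 118.2 and 76.2 in Fah p21 off. Livers off NTBC thus lay above the normal livers on NTBC and below the wildtype liver on water. Hspa1b showed the same order on all 3 of its probe sets.

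For Hspa1b, 1427126_at read 1903.9 in normal 1, 137.3, 94.8 and 120.5 in normal 2 to 4, 490.4, 531.3 and 615.8 in Fah off, and 546.3 and 390.4 in Fah p21 off. Normal 1 was 16.2-fold above the mean of the other normal livers on this probe set, 10.6-fold on 1427127_x_at, 8.09-fold on 1452318_a_at, and 18.0-fold on the Hspa1a probe set. The coding regions of both genes are nearly alike, so how their probe sets divide signal between them is uncertain. With all 4 normal arrays none of these 4 probe sets passed in either comparison, for example 1.15 ± 0.80 for 1427126_at in Fah off (adjusted p = 0.291). Without normal 1 all 4 rose in both, and 1427126_at then gave 2.13 ± 0.19 in Fah off (4.39-fold, adjusted p = 2.6e-05) and 1.90 ± 0.21 in Fah p21 off (adjusted p = 0.000186). Normal 1 stands apart by its values on these same probe sets, so the limma p-values without it are not an independent test. Hspa1a without normal 1 gave 1.72 ± 0.39 (adjusted p = 0.0073) and 1.75 ± 0.44 (adjusted p = 0.0152). It read at most 34.9 in normal 2 to 4, so it then entered the test through the off livers, where it read higher.

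**Figure D1:**
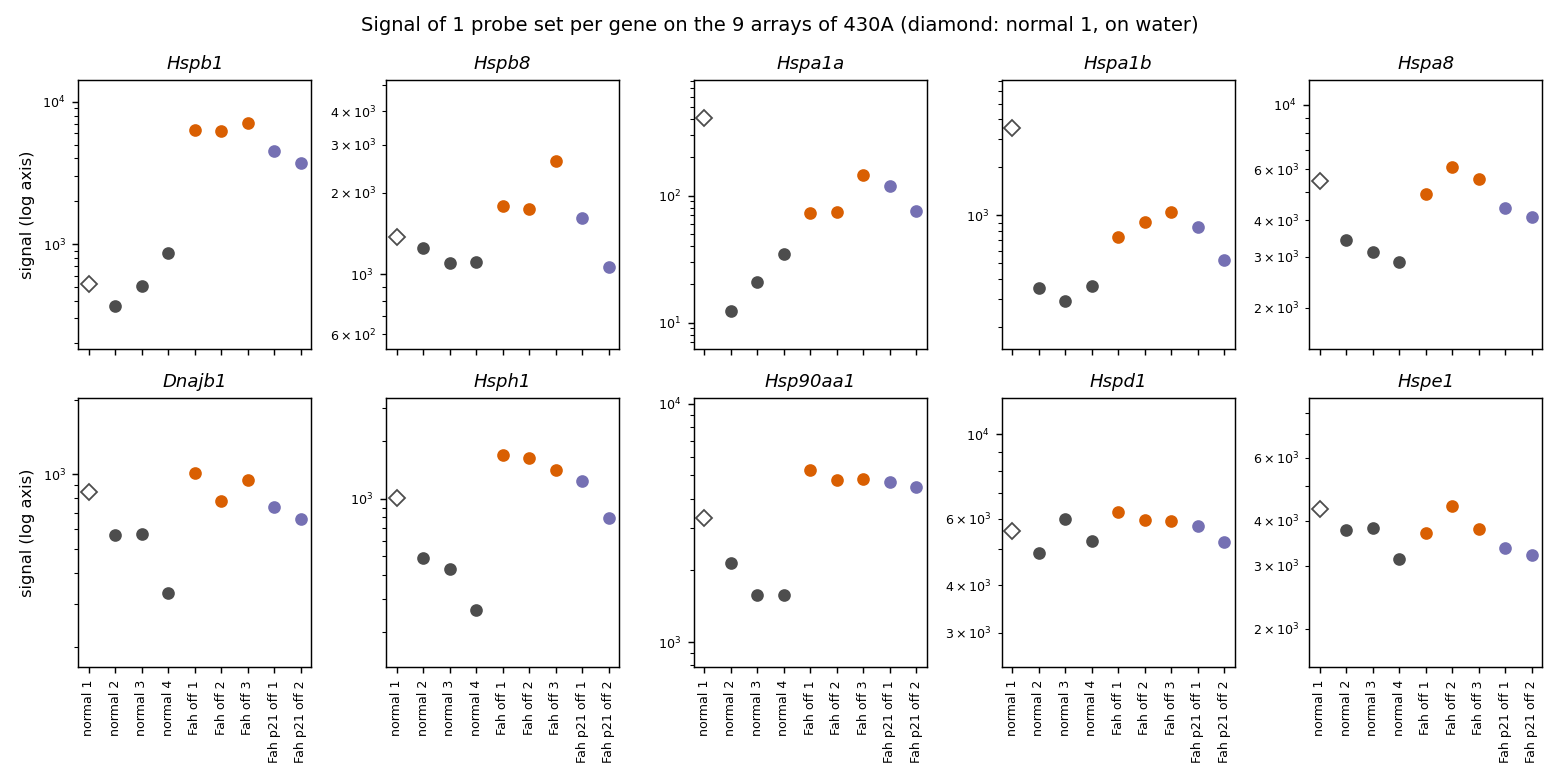
Signal (log axis) of the representative probe set of each member, the one with the highest mean log2 signal, on the 9 arrays of 430A; each point is 1 liver, grey for normal, orange for Fah off, purple for Fah p21 off, and the open diamond is normal 1. Hspa1a peaks at 409.6 and Hspa1b at 3541.7 in normal 1, while Hspb1 reads at most 860.9 in any normal liver and at least 3726.7 off NTBC.

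Hspa8 did not move as 1 gene, since its 4 probe sets disagreed. The brightest, 1420623_x_at, read 5445.8 in normal 1, 3409.4, 3100.9 and 2882.9 in normal 2 to 4, 4907.7, 6089.5 and 5529.8 in Fah off, and 4395.3 and 4088.1 in Fah p21 off. It rose by 0.61 ± 0.19 in Fah off (adjusted p = 0.0295) and gave 0.24 ± 0.22 in Fah p21 off (adjusted p = 0.461). With the arrays scaled to a common median the first value was 0.54 ± 0.26 and did not pass (adjusted p = 0.127). The other 3 probe sets gave -0.22 to 0.28 in Fah off and -0.42 to 0.25 in Fah p21 off and did not pass. On 1420622_a_at and 1455789_x_at normal 1 was the highest of the 9 arrays, and the dim 1431182_at read lowest there, at 52.1 against 87.4 to 100.5.

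The partners of Hsp70 also ran high in normal 1. Dnajb1 probe set 1416755_at read 820 there, 360.2, 231.5 and 253 in normal 2 to 4, 498.3, 510 and 466.1 in Fah off, and 386.4 and 528.5 in Fah p21 off. Its change in Fah off was 0.42 ± 0.35 with all normal arrays (adjusted p = 0.382) and 0.81 ± 0.20 without normal 1 (adjusted p = 0.00981). The other Dnajb1 probe set, 1416756_at, rose by 0.71 ± 0.25 in Fah off (adjusted p = 0.0471), and by 0.92 ± 0.22 without normal 1. With all normal arrays this call was lost under 6 alternatives, among them quantile normalization (0.65 ± 0.27, adjusted p = 0.0767) and median scaling (0.64 ± 0.31, adjusted p = 0.133), and it was lost on leaving out any 1 normal or Fah off array other than normal 1.

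Hsph1 rose on both of its probe sets in Fah off. Probe set 1425993_a_at read 1010.6 in normal 1, 490.2, 427.2 and 262.2 in normal 2 to 4, 1690.2, 1647.6 and 1415.9 in Fah off, and 1246 and 796 in Fah p21 off. Fah off livers all exceeded normal 1, and 1 of the 2 double knockouts did not. The rise was 1.68 ± 0.35 in Fah off (3.20-fold, adjusted p = 0.00337), and Fah p21 off gave 1.02 ± 0.40 (adjusted p = 0.0797), or 1.37 ± 0.27 without normal 1 (adjusted p = 0.00463). The second probe set, 1423566_a_at, gave 1.55 ± 0.29 and 0.93 ± 0.33, and passed in Fah off alone (adjusted p = 0.00172 and 0.0558).

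Hsp90aa1 rose on all 3 probe sets in Fah off. Probe set 1426645_at read 2162.6 in normal 1, 1187.9, 1224.6 and 1054.9 in normal 2 to 4, 3402.2, 4283.7 and 3537.1 in Fah off, and 3568.2 and 3807.6 in Fah p21 off. No liver off NTBC overlapped a normal one. The rise was 1.46 ± 0.21 in Fah off (2.74-fold, adjusted p = 0.000357) and 1.44 ± 0.24 in Fah p21 off (2.72-fold, adjusted p = 0.00127). The difference between the off groups was -0.01 ± 0.26, with a 95% interval of -0.58 to 0.55. Probe set 1438902_a_at rose by 1.27 ± 0.22 and 1.16 ± 0.25, while 1437497_a_at rose by 1.42 ± 0.30 in Fah off and gave 0.93 ± 0.35 in Fah p21 off (adjusted p = 0.0659). Median scaling brought 1438902_a_at in Fah p21 off to 0.92 ± 0.33 (adjusted p = 0.0573), and quantile normalization brought 1437497_a_at there to 1.05 ± 0.34 (adjusted p = 0.038).

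By their brightest probe sets the mitochondrial pair moved least of the members in Fah off. Hspd1 read 5550.5, 4870.9, 5986.5 and 5234.2 in normal livers, 6235.6, 5935.4 and 5909 in Fah off, and 5735.7 and 5220.9 in Fah p21 off. Its change was 0.16 ± 0.10 in Fah off, with a 95% interval of -0.06 to 0.38, and 0.02 ± 0.11 in Fah p21 off, with an interval of -0.23 to 0.27. This depended on the scaling: after quantile normalization Hspd1 gave 0.42 ± 0.10 (adjusted p = 0.00566) and 0.43 ± 0.11 (adjusted p = 0.0132), both passing, and after median scaling 0.087 and -0.22, neither passing. Hspe1 probe set 1450668_s_at gave 0.09 ± 0.13 and -0.18 ± 0.14, neither of which passed. The dimmer 1422579_at read 687.2 to 830.2 in normal livers and 930.8 to 1007 in Fah off, and rose by 0.36 ± 0.12 (1.28-fold, adjusted p = 0.0357), a call that was lost with 0.31 ± 0.12 after quantile normalization (adjusted p = 0.0639) and with 0.29 ± 0.17 after median scaling (adjusted p = 0.21).

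**Figure D2:**
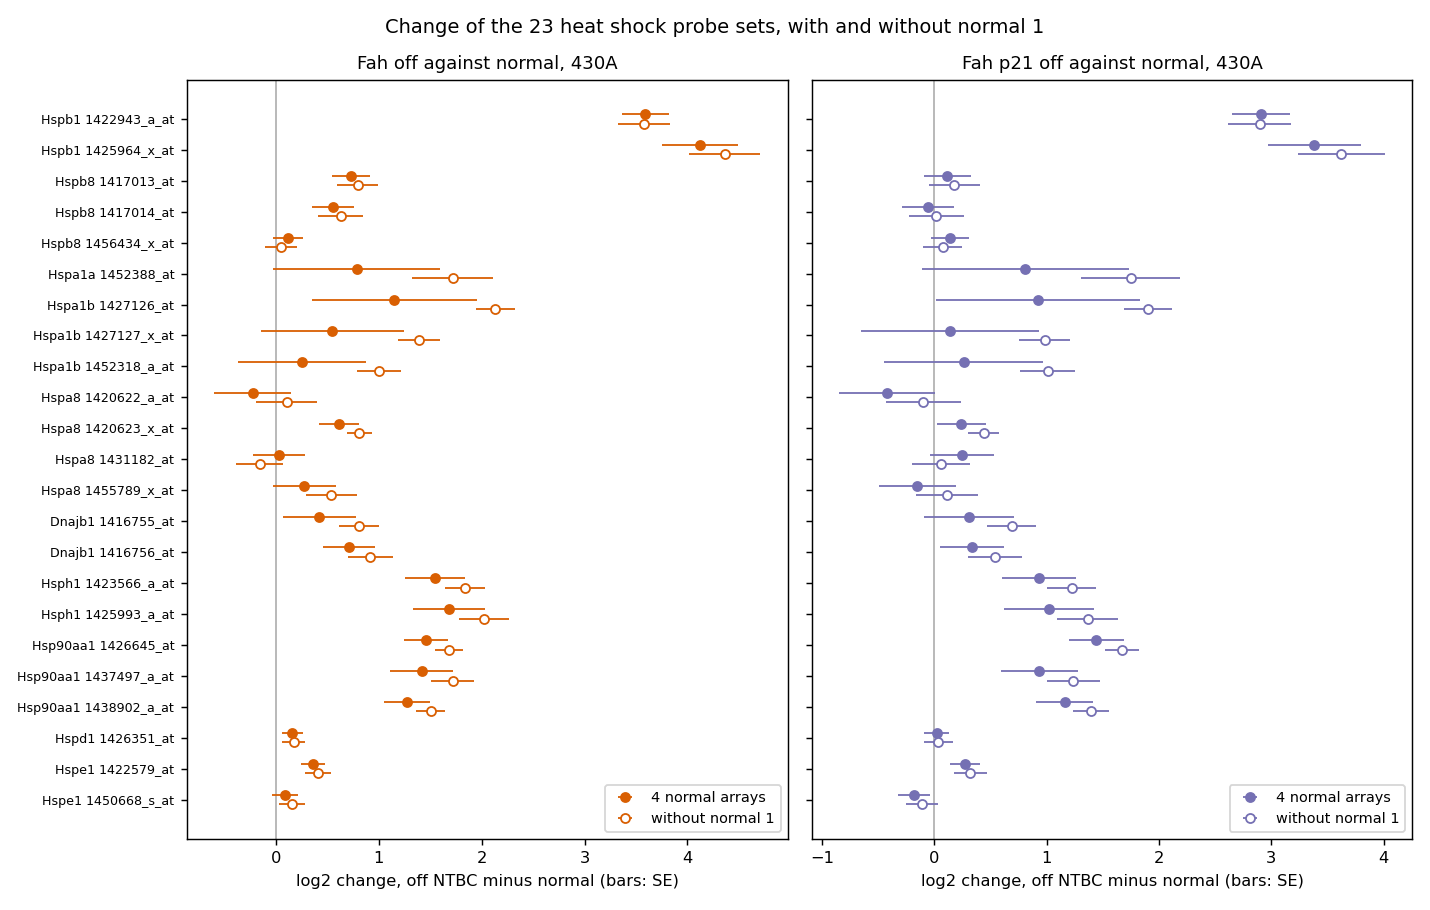
Log2 change of each of the 23 probe sets in Fah off (left) and Fah p21 off (right) against normal livers; filled points use all 4 normal arrays, open points leave out normal 1, and bars are standard errors from limma. The Hspa1b probe set 1427126_at moves from 1.15 to 2.13 in Fah off when normal 1 is left out, while Hspb1 1422943_a_at stays at 3.59 and 3.58.

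Counted over all 23 probe sets, every one of which passed the filter on dim signals, 11 rose and 0 fell in Fah off against normal, where 20.1% of the 15307 tested probe sets rose and 15.4% fell. The 11 belong to 7 genes: Hspb1, Hspb8, Hspa8, Dnajb1, Hsph1, Hsp90aa1 and Hspe1. The members' median change was 0.61, against 0.02 over all probe sets tested. In Fah p21 off against normal 4 rose and 0 fell, which is 17.4% of the members and close to the 17.7% of all probe sets that rose (10.7% fell); the 4 belong to Hspb1 and Hsp90aa1. The medians there were 0.27 for the members and 0.11 for all. Scaling the arrays to a common median or by quantiles moved the median of all probe sets in Fah p21 off against normal to -0.13 or -0.02 and the share of higher among passing probe sets from 62.4% to 39.3% or 51.7%, while 3 or 6 member probe sets rose and 0 fell.

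Leaving out normal 1 changed these counts more than leaving out any other array. Without it 16 of 23 rose in Fah off (18.2% of all probe sets) and 13 of 23 in Fah p21 off (15.1%), with 0 lower in both (14.1% and 9.53%), and the members' medians were 0.92 and 0.69. Since normal 1 stands apart by its values on the members themselves, counts without it are not an independent test. Those 3 remaining normal livers are the normal livers on NTBC. All 5 livers off NTBC exceeded all 3 of them on 15 of the 23 probe sets, in 8 of the 10 genes, against 20.4% of all probe sets tested.

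Normal 1 itself was set against the other normal arrays. It was at least 2-fold above each other normal array on 8 of the 23 member probe sets, against 37 of the 15307 tested (0.242%); the 8 belong to Hspa1a, Hspa1b, Dnajb1, Hsph1 and Hsp90aa1. Normal 2, 3 and 4 stood so far above the rest on 0 of the 23, against 0.150%, 0.431% and 0.725% of all. With 1 probe set a gene, this held for 3 of 10 members, for 16 of 9195 genes in all, and for 0 genes of each other chaperone list. Normal 1 was also the highest of the 4 normal arrays, by any margin, for 8 of 10 members, 7 of 8 TRiC genes, 11 of 17 endoplasmic reticulum genes, 6 of 10 Hsp90 partners and 5 of 10 mitochondrial chaperones, against 1562 of 9195 genes. Hspb1, Hspb8, Hspa8, Hspd1 and Hspe1 had no probe set among the 8 that stood at least 2-fold above each other normal array. Hspb1 in normal 1 was 0.911 times the mean of normal 2 to 4 on 1422943_a_at and 1.78 times on 1425964_x_at. Hspd1 was 1.03 times that mean. Hspa8 was 1.74 times on 1420623_x_at, 2.29 on 1420622_a_at, 2.02 on 1455789_x_at and 0.551 on 1431182_at. Normal 1 is the only wildtype liver without NTBC, so its condition and its mouse cannot be told apart.

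Normal 1 shares with the off groups that its mouse received no NTBC. Grouped this way after the values were seen, all 6 livers without NTBC exceeded all 3 livers on NTBC on 14 of the 23 member probe sets, in 8 of the 10 genes, against 4.49% of all probe sets tested. Hspb8 and Hspd1 were the 2 genes with no such probe set. Among the 3 NTBC livers are 3 genotypes, and among the 6 others 1 wildtype, 3 Fah knockouts and 2 double knockouts. This count rests on 1 array for the wildtype, and no test of NTBC itself was made.

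**Figure D3:**
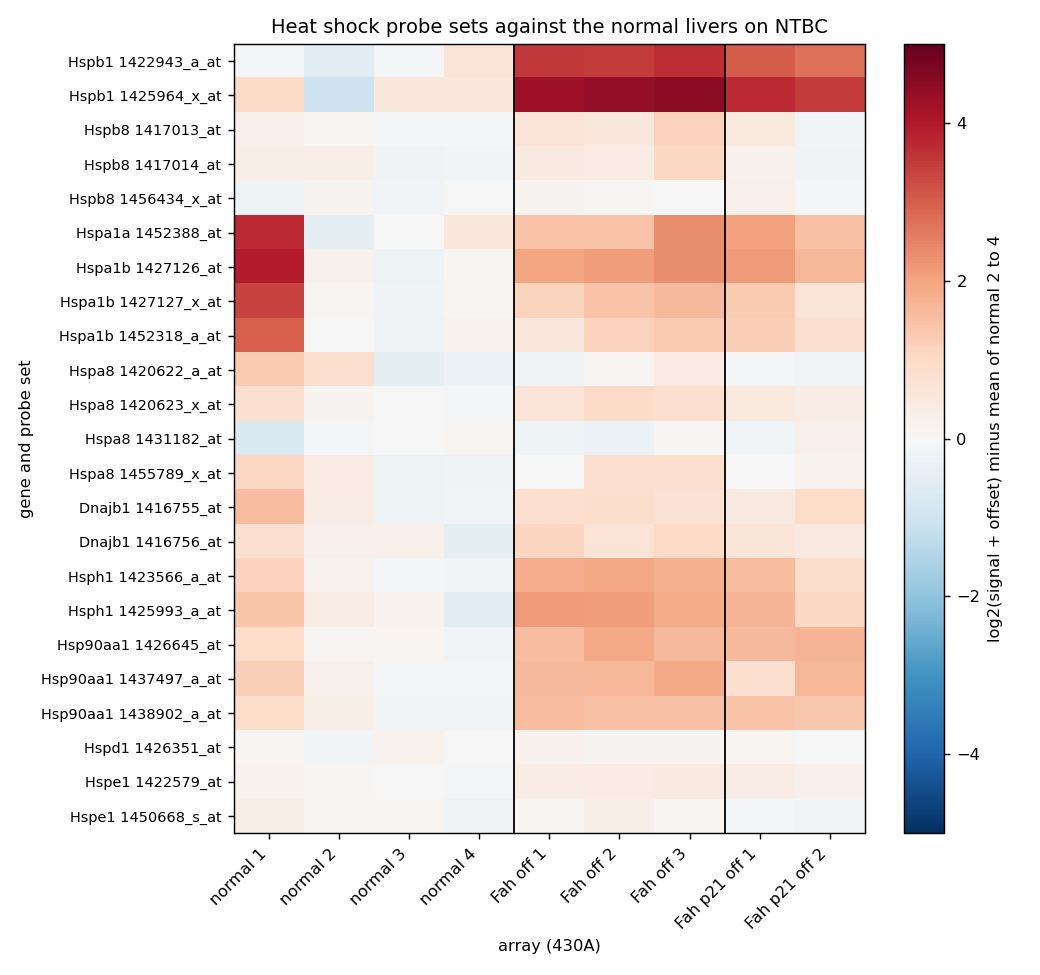
Each of the 23 probe sets (rows) on the 9 arrays of 430A (columns), coloured by log2(signal + offset) minus the mean of normal 2 to 4; vertical lines part the normal, Fah off and Fah p21 off arrays. Hspa1a and Hspa1b are darkest in normal 1 (8.09-fold to 18.0-fold above the mean of normal 2 to 4 in signal), Hspb1 in the 5 livers off NTBC.

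Between the off groups no member probe set passed in limma, with 3 of 23 at an unadjusted p under 0.05, and only 6 of 15307 probe sets passed in all (0.0392%). On 19 of the 23 the double knockouts were on average the lower group, but the share of all probe sets with a lower mean was not counted. On 11 both of them lay below all 3 single knockouts (10.9% of all probe sets tested). The members' median difference was -0.26, against 0.06 over all. The 23 probe sets stand for 10 genes, so those of 1 gene are not independent. The 3 probe sets with an unadjusted p under 0.05 were Hspb1 1422943_a_at, Hspb8 1417013_at (-0.62 ± 0.22, limma adjusted p = 0.48) and Hspb8 1417014_at (-0.61 ± 0.24, adjusted p = 0.547). For Hspa1b 1427126_at the interval of the difference, -2.33 to 1.88, leaves either direction possible.

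The 430 2.0 array carried 2 further double knockouts off NTBC and 1 normal liver of the same genotype on NTBC. Its replicate number, genotype and treatment are those of normal 4 on 430A, and the labels do not say whether both arrays hold the same liver, so it may not be an independent control. Here the fit had 1 residual degree of freedom, so it leaned on the spread of all probe sets. Of 25 member probe sets 23 were tested, and 8 rose and 0 fell, against 7.71% of all 26925 tested that rose and 3.80% that fell. Hsp90aa1 1433251_at, at 28.2, 5.2 and 3.6, and 1441827_x_at, at 2.9, 27.9 and 18, were too dim to be tested. The count was 3 when the spread was not modelled as a trend with intensity, and the calls of both Hsph1 probe sets (adjusted p = 0.0703 and 0.0561), of both passing Hsp90aa1 probe sets (0.0632 and 0.0643) and of Hspa8 (0.106) were then lost.

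Hspb1 1422943_a_at read 1029.9 in normal 4 and 5132.1 and 5135.1 in the off livers, a rise of 2.31 ± 0.22 (4.97-fold, adjusted p = 0.00133). Hsph1 1425993_a_at read 639.4, 2451.7 and 1984.8, a rise of 1.78 ± 0.25 (adjusted p = 0.00568). Hsp90aa1 1426645_at read 2465.4, 8514.6 and 8036.4, a rise of 1.74 ± 0.22 (adjusted p = 0.0039). In these 3 genes both off livers stood above the single normal liver of this array design. On 430A Hsph1 1425993_a_at in the double knockouts (1246 and 796) overlapped the normal livers only through normal 1 (1010.6). Both exceeded normal 4 of that array design (262.2), the liver of the same genotype on NTBC, and the difference from it was 1.89. Hspa1a read 56.4, 256 and 287.7, a rise of 2.19 ± 0.34 (adjusted p = 0.00889), whereas Hspa1b 1427126_at read 654.7, 747.2 and 1056.5, a difference of 0.44 ± 0.29 (adjusted p = 0.407). The probe sets of this gene pair thus differed here, and none of the 3 of Hspa1b passed. Hsp90aa1 1426645_at gave 1.60 ± 0.60 after median scaling (adjusted p = 0.0535), and Hspa1a did not pass with no filter on dim probe sets (adjusted p = 0.0557).

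Among the other members on 430 2.0, Hspa8 passed on the dim 1431182_at alone, at 98.8, 465.4 and 284.2 (1.84 ± 0.38, adjusted p = 0.0244), a probe set that gave 0.25 ± 0.29 in Fah p21 off on 430A and did not pass here with no filter (adjusted p = 0.112). Dnajb1 gave 0.81 ± 0.27 and 0.78 ± 0.25 on its 2 probe sets (adjusted p = 0.106 and 0.101). Hspb8, Hspd1 and Hspe1 gave -0.26 to 0.22 and did not pass. Signals of the 2 array designs were not set against each other.

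**Figure D4:**
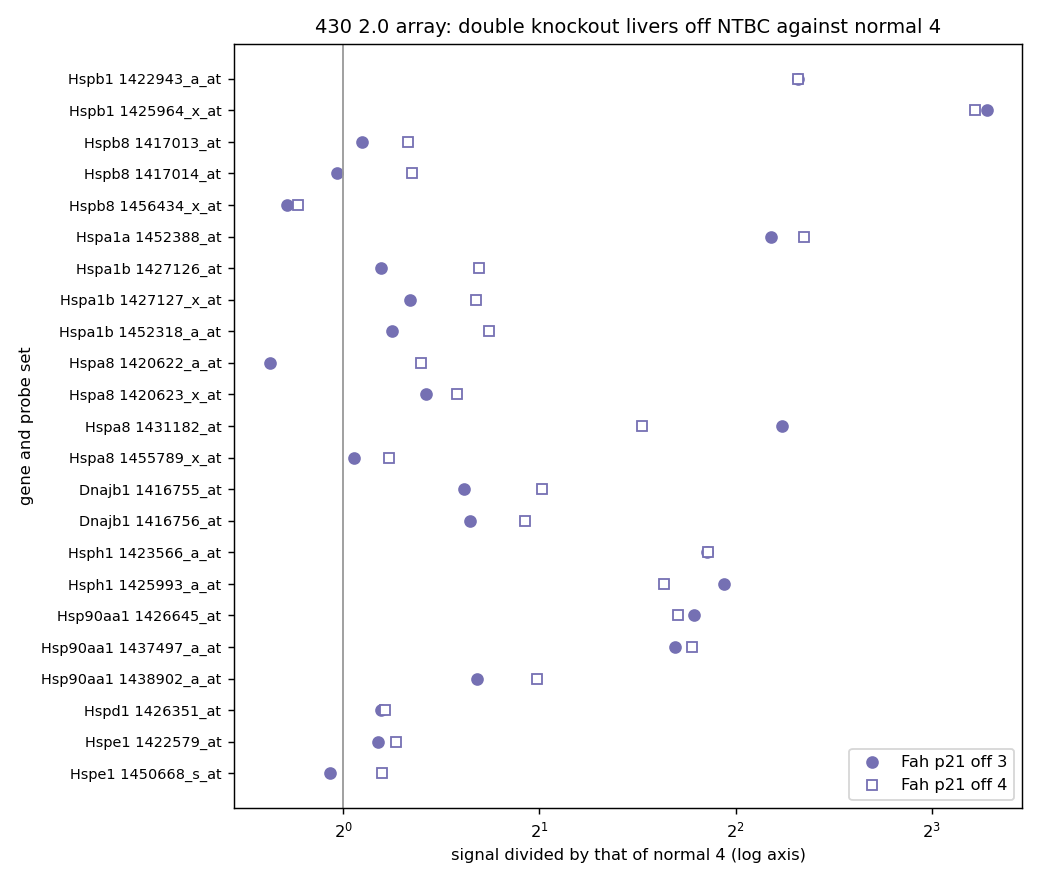
Signal of the 2 double knockout livers off NTBC divided by that of normal 4 on the 430 2.0 array (log axis), for the 23 tested member probe sets; the vertical line marks equal signal. Hspb1, Hspa1a, Hsph1, Hsp90aa1 1426645_at and 1437497_a_at and Hspa8 1431182_at lie farthest to the right, and these 8 probe sets are the ones that passed.

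Other chaperone genes, read with 1 probe set a gene, were counted against 19.7% of 9195 genes that rose and 16.5% that fell in Fah off, and against 17.8% and 11.5% in Fah p21 off. Of the members 6 of 10 rose by this count. Among other Hsp70 and Hsp110 genes 3 of 4 tested rose: Hspa4l by 1.43 ± 0.22 (adjusted p = 0.000557), Hspa4 by 1.09 ± 0.17 and Hspa14 by 0.72 ± 0.20. Hspa4l, a relative of Hsph1, read 152.3, 122.3, 179.9 and 181.9 in normal livers, 504, 553.2 and 303.8 in Fah off, and 408.4 and 546.8 in Fah p21 off, so normal 1 did not stand out. The same 3 genes rose in Fah p21 off, but of them only Hspa4 and Hspa4l after quantile normalization and only Hspa4l after median scaling. Without normal 1, 3 of the 4 tested rose in Fah off and 1 of 4 in Fah p21 off. Over all 9111 genes tested that way 1618 and 1364 rose.

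Of 17 other J domain genes, whose proteins stimulate Hsp70, 7 rose and 1 fell in Fah off, led by Dnajc12 at 1.32 ± 0.21 and Dnajb12 at 1.11 ± 0.19. Dnajc9 rose by 0.78 ± 0.25 in Fah off, a call lost under both other scalings, and by 1.67 ± 0.28 in Fah p21 off, where 5 of 17 rose and 0 fell. Of 9 partners and exchange factors of Hsp70, 4 rose and 0 fell, among them Bag2 at 1.21 ± 0.17 and St13 at 1.02 ± 0.16. Of 10 Hsp90 partners 3 rose in each off group: Fkbp5, an Hsp90-bound immunophilin that glucocorticoids also induce, by 1.31 ± 0.20 in Fah off and 2.65-fold in Fah p21 off, the Hsp90 activator Ahsa1 by 0.92 ± 0.16 and 0.58 ± 0.18, and Cacybp by 0.86 ± 0.13 and 0.68 ± 0.14. The genes of these lists, which were not drawn up by compartment, thus rose or did not pass, except Dnajc1 at -0.63 ± 0.17 in Fah off. After quantile normalization or median scaling 5 of 17 J domain genes rose in Fah off under either, and in Fah p21 off 4 or 1, where their median turned from 0.12 to -0.034 or -0.12. Likewise 2 of the 9 Hsp70 partners rose in Fah off under either scaling. Among Hsp90 partners 3 rose in Fah off under either, with Fkbp4 lower after quantile normalization, and after median scaling only Fkbp5 rose in Fah p21 off, with Cdc37 lower; Bag4 of the Hsp70 partners was lower there too.

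Cytosolic chaperonin subunits followed, with 4 of 8 TRiC genes higher in Fah off, led by Cct7 at 1.31 ± 0.16 (adjusted p = 9.46e-05), and 2 of 8 in Fah p21 off (25% against 17.8% of all genes). After quantile normalization 4 and 3 of the 8 rose, and after median scaling 2 and 0, with a median of -0.11 in Fah p21 off in place of 0.14. Prefoldin, which delivers actin and tubulin to TRiC, had 2 of 5 subunits higher in Fah off (Pfdn2 and Vbp1) and 0 of 5 in Fah p21 off, and only Pfdn2 rose in Fah off under either other scaling. Mitochondrial chaperones other than Hspd1 and Hspe1 moved little, with Grpel2 higher and the mitochondrial Hsp90 Trap1 lower out of 10, and the mitochondrial Hsp70 Hspa9 higher in both off groups after quantile normalization alone. Trap1 read 1544.9 to 1714.9 in normal livers, 715.7 to 803 in Fah off, and 785.1 and 707.2 in Fah p21 off, a change of -1.09 ± 0.11 in Fah off (adjusted p = 3.2e-05).

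Chaperones of the endoplasmic reticulum went the other way on 430A. Of 17 genes 0 rose and 8 fell in Fah off, and 0 rose and 5 fell in Fah p21 off (11.5% of all genes fell there), with a median of -0.54 in Fah off against a median near 0 over all genes. Sil1, the exchange factor of the reticulum's Hsp70, changed by -0.97 ± 0.16, and the disulfide isomerase Pdia4 by -0.90 ± 0.18. The largest change was in Herpud1, a membrane protein of the degradation pathway there rather than a chaperone, at -1.49 ± 0.25 (adjusted p = 0.000775). After quantile normalization Dnajb9 rose in Fah off and Hspa5 and P4hb rose in Fah p21 off, with 8 and 5 lower, and after median scaling 0 rose and 8 fell in both. None of the 17 was 2-fold above the other normal arrays in normal 1, but their median excess there over the mean of normal 2 to 4 was 0.32. Without normal 1 the median in Fah off was -0.37, and 1 of the 17 rose and 8 fell. In Fah p21 off 0 then rose and 4 fell. Over all 9111 genes tested that way 1392 fell in Fah off and 963 in Fah p21 off.

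On 430 2.0 fewer genes of these lists passed, as of all 12921 genes tested, where 9.11% rose and 4.91% fell. Of 17 endoplasmic reticulum genes 1 was lower, Herpud1 at -1.15 ± 0.28 (adjusted p = 0.0422), a share of 5.88%. Of 10 mitochondrial chaperones 1 was lower, Trap1 at -1.16 ± 0.23 (adjusted p = 0.0209). The genes that rose were Hspa4l of 6 Hsp70 and Hsp110 genes, Dnaja4 and Dnajc9 of 18 J domain genes, Fkbp5 and Stip1 of 10 Hsp90 partners, Bag2 and Bag3 of 9 Hsp70 partners, and Cct7 of 8 TRiC genes. The shares for the J domain (11.1%) and TRiC (12.5%) lists were near that of all genes.

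**Figure D5:**
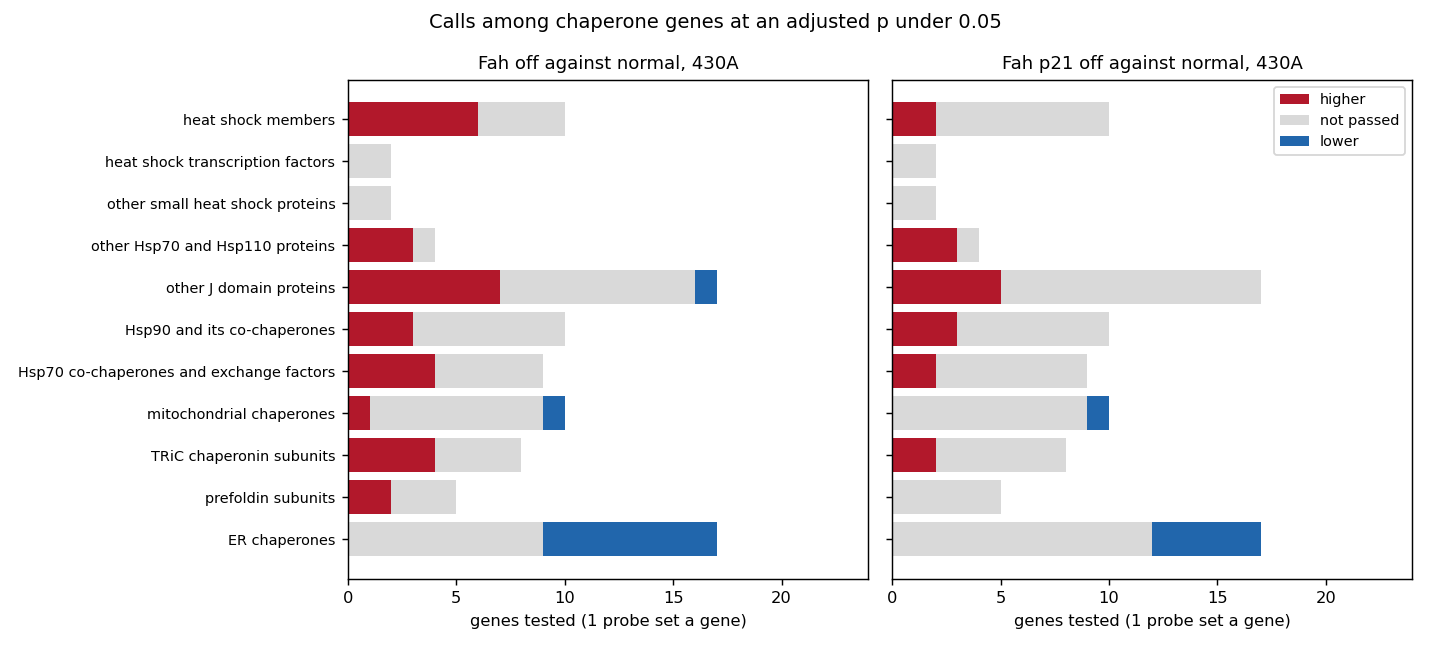
Genes of each chaperone list tested on 430A, 1 probe set a gene, split into those higher (red), not passed (grey) and lower (blue) at a limma adjusted p under 0.05 in Fah off (left) and Fah p21 off (right) against normal livers. Of the 10 heat shock members 6 and 2 are higher, and of 17 endoplasmic reticulum genes 8 and 5 are lower.

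The heat shock factors themselves gave no change that passed. Hsf4 gave 0.0041 ± 0.24 and Hsbp1, which binds the factors, -0.05 ± 0.14 in Fah off. Hsf2 1449306_at read 4.9 to 21.7 on all 9 arrays of 430A and was too dim to be tested. On 430 2.0 Hsf2 1444436_at read 70.8, 66.9 and 49.9, with -0.28 ± 0.51 (adjusted p = 0.787). Hsf1 had no probe set under its symbol alone and was not analysed here.

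Genes most like a member were sought over the 9 arrays by the root mean square difference of centred log2 values among 9195 genes. Closest to Hspb1, the member with the largest change, were Pgd (0.263), an enzyme of the pentose phosphate pathway, Zbtb21 (0.267) and Slc48a1 (0.277), a heme transporter. Pgd read 355.9 to 500.7 in normal livers, 4067.3 to 5171.5 in Fah off, and 4862.9 and 3074.5 in Fah p21 off. Closest to Hspe1, with the smallest change, were Psmd6 (0.0532), a proteasome subunit, Rnf8 (0.0563) and Hadha (0.0789). For Hspa1b, added after its values were seen, they were Hspa1a (0.405), Alas1 (0.676), the first enzyme of heme synthesis, and Creld2 (0.737). Alas1 read 6718.9 in normal 1 against 2692.6 to 3566.5 in normal 2 to 4, and Creld2 714.9 against 249.6 to 380.8.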

How the data were processed

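Mouse liver RNA was hybridised to 12 Affymetrix arrays, and the deposited values are linear signal intensities, 1 per probe set and array, for which the submitters' processing notes name MAS5 and GCOS 1.4.0.036. The mean signal between the 2nd and 98th percentile was 347.5 to 348.8 on every 430A array. Depth does not apply to arrays; their number limits the precision. Symbols came from the platform annotation. Values were taken to log2(signal + offset), the offset being the 10th percentile (9.9 on 430A, 3.8 on 430 2.0), which understates changes of dim probe sets. Probe sets at or above the 40th percentile of their array on 2 or more arrays were tested, 15307 and 26925. The 9 arrays of 430A entered 1 limma fit (3.58.1, R 4.3.3, lmFit and eBayes with intensity trend), the 3 of 430 2.0 another; p-values were adjusted by Benjamini-Hochberg over all tested, and a probe set passed under 0.05. Scripts were tested on simulated data. Named were all member probe sets, up to 3 passing genes per chaperone list with the largest change, Hsf1 and Hsf2, the 3 genes most like the members of largest and smallest change, and Fah and Cdkn1a; Dnajc1, Krt7, Krt19, Muc1, genes whose call turned with the scaling, and the likeness to Hspa1b were added after values were seen. Members and lists were chosen with earlier results of these data known. Alternatives changed the filter, offset, scaling, trend, arrays entering the fit, replicate block, control array and left-out array. No 2 of the 36 array pairs shared over 0.407% identical signals. Figures used matplotlib 3.10.9 in Python 3.11.15.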

Additional observations from a re-analysis of the deposited data

Results flagged for a closer look

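Hspa1b was set apart by 1 normal liver. Within the 4 normal arrays, normal 1, the wildtype mouse on water, lay far above the rest on all 3 Hspa1b probe sets. Its gap to the next array was taken as a share of the group's range on the log2(signal + offset) scale. This share was 0.883 on 1427126_at (linear signal 1903.9), 0.917 on 1427127_x_at (3541.7) and 0.89 on 1452318_a_at (2608.2). Each was above Dixon's critical value for 4 samples. These 3 are the flags among the 23 member probe sets examined in the normal group, all of them for normal 1. Chance flags about 1 in 20 groups of 4 samples of 1 condition. The normal arrays hold 4 conditions with 1 mouse each, so neither that rate nor the critical value strictly applies here. The 3 probe sets read nearly the same transcripts and are not independent. Water and the single mouse cannot be told apart as the source.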

How the results depend on the processing

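Each comparison was recomputed under the alternatives, and member probe sets that fell numbered 0 in every one. In Fah off against normal 8 to 10 probe sets rose, against 11, under no filter, quantile normalization, median scaling, no intensity trend and only the groups compared, and 11 under both other offsets; leaving out 1 array gave 8 to 16, with 16 without normal 1. In Fah p21 off against normal, 3 to 6 rose against 4 under these settings; leaving out 1 array gave 3 to 13, with 13 without normal 1. Between the off groups 0 passed throughout. On 430 2.0 the count was 8, with 6 under no filter, 10 after quantile normalization, 7 after median scaling and 3 with no intensity trend. The 7 same-numbered pairs of arrays had correlations of deviations of -0.281 to 0.0713. These values cannot decide whether the numbers pair the livers, since deviations of the normal arrays also hold their differences of condition. The sources do not state such a pairing. With the replicate block 8, 4 and 0 rose in the 3 comparisons of 430A. Against the array of the same genotype on NTBC, 8 rose in Fah off and 6 in Fah p21 off.

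Over all member probe sets 62 of 1196 values changed sign under an alternative, and 0 of them were past the threshold before or after; their cause was not tested. Among representative probe sets, quantile normalization gave 0.10 for Hspe1 in Fah p21 off against normal, and 0.0061 for Hspd1, 0.0058 for Hsp90aa1 and -0.13 for Hspa1a between the off groups. Median scaling gave -0.13 for Hspb8, -0.004 for Hspa8, -0.22 for Hspd1 and -0.10 for Hspa1b in Fah p21 off against normal, -0.13 for Hspa1a between the off groups, and -0.073 for Hspe1 on 430 2.0. The replicate block gave -0.37 for Hspa1b in Fah p21 off against normal and -0.10 for Hspa1a between the off groups, and the control of the same genotype 0.076 for Hspe1 in Fah p21 off. Leaving out 1 array gave -0.21 to 0.98 for Hspa1b, -0.047 to 0.088 for Hspd1 and -0.18 to 0.41 for Hspb8 in Fah p21 off against normal, and -0.26 to 0.32 for Hspa1a between the off groups.

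The normal group holds 4 conditions with 1 mouse each, the double knockouts 2 mice per array design, and the files used here give no detection calls, so dim probe sets such as Hspa1a in normal 2 to 4 may hold little more than background. On 430 2.0 the single normal array leaves its own spread unmeasured.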
